A study of Mus musculus with 3 samples.

Results

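The 1700001L05Rik locus is a stretch of mouse chromosome 15 that carries a noncoding gene of the same name and gives rise to many small RNAs in the testis. Its members are the listed small RNA sequences that start between positions 83160001 and 83220000 of chromosome 15 (mm9), and there were 3928 of them among 2219118 in the whole list (0.177%). The locus was selected on the number of listed sequences matching the gene, so that its richness is a description and was not tested.

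The series holds 3 libraries of small RNAs from testis of C57BL/6 mice, 1 for each immunoprecipitate. They are a Mili precipitate of testes that lack Tdrd1, taken 15 days after birth (15 dpp), a Tdrd1 precipitate of adult testes and a Mili precipitate of adult wild-type testes. Age and genotype differ together between the Mili precipitates, and the labels give no further detail of the Tdrd1 allele. The deposited list names each distinct sequence once, with its position, and gives neither library, read number nor strand. Knockout could therefore not be set against wild type, nor Tdrd1 against Mili, and each value below describes the 3 immunoprecipitates pooled, with an abundant and a rare small RNA weighing the same. Sequencing depth is unknown for the same reason, and 95% intervals (exact Clopper-Pearson) cover counting error only. Neighbouring sequences of 1 precursor are not independent, and no difference between sets of sequences was tested.

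piRNAs are the small RNAs that Piwi proteins carry in animal germ cells. They are cut from long single-stranded precursors, many of them noncoding, and U is the usual first base of those made directly from a precursor. Mili, the product of Piwil2, is one of the Piwi proteins of mouse germ cells, and Tdrd1 is a Tudor-domain protein that binds it. In a second route, the ping-pong cycle, a piRNA directs cleavage of an RNA of the opposite strand and so sets a new 5′ end there, which leaves pairs whose 5′ ends overlap by 10 nt. In mouse testis many of the precursors made during meiosis are driven by the transcription factor A-MYB.

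The sequences that carry the description are shown here 5′ to 3′ in DNA letters, so that T stands for U in the RNA, and all lie on the minus strand of chromosome 15. The 5 most used 5′ ends of the locus, each used by 10 to 12 listed sequences, are shown by their longest sequence of 24 to 32 nt. A further end also had 10 and is not shown. The capital T is the first base, and the capitals at the right mark the bases that the shortest sequence of 24 nt at the same 5′ end lacks. Distinct sequences that share a 5′ end must differ in their 3′ end, and these ends were picked for having most of them. Of the 1600 distinct 5′ ends of the locus, 742 held a single sequence.
End at 83185123: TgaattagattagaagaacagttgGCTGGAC
End at 83184853: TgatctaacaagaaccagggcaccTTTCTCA
End at 83186234: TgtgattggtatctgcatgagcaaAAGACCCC
End at 83186061: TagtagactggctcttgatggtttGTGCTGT
End at 83184934: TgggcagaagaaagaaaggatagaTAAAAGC

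A longer stretch shows where listed sequences start in the richest part of the last exon. It is the 120 nt of the last exon in which most listed sequences start, at chr15:83185678-83185797 (mm9, minus strand), with capitals at each base where 3 or more listed sequences start.
Richest 120 nt: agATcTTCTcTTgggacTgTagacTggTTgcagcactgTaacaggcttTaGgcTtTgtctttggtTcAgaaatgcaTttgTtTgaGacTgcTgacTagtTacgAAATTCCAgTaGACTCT
In this window 244 sequences started, 8.30% of those in the last exon, at 77 of the 120 positions. Of the 43 positions in capitals 28 are U, and 37 of all 42 U positions in the window start at least 1 sequence. The window was picked as the richest and does not stand for the whole exon. Over the 4191 nt of the last exon there were 1113 distinct 5′ ends, and 46.0% of its 1260 U positions started at least 1 sequence.

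Small RNAs of the locus came from the transcribed strand of 1700001L05Rik and followed its exons. Of the 3928 sequences 3533 (89.9%, 95% interval 89.0 to 90.9%) matched one of its 4 annotated transcripts over their whole length in the sense direction, and 0 matched in the antisense direction. They ran from 83184296 to 83197711. That is a density of 578 sequences per kb over the 6112 nt of its merged exons. Among stretches of 60 kb across the genome with at least 1 sequence, 29681 in all, the locus ranked 34th.

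Strand could be inferred for 3896 sequences (99.2%), and all 3896 lay on the minus strand. A strand was called from overlaps with neighbours in the list, since overlapping sequences of 1 strand carry the same bases, or else from the match to a transcript. Where both gave a strand, they gave the same one in 3562 of 3562 sequences. Only sense matches gave a strand and the matched genes lie on the minus strand, so that plus-strand sequences could not enter this check. The transcript match could likewise add only minus-strand calls, while overlaps alone placed 3874 of 3874 sequences on the minus strand. Among sequences with a strand, a count of 0 on the plus strand allows a share of up to 0.0770%. That limit was taken as 3 counts of the total and not as a Clopper-Pearson bound. It leaves out the 32 sequences without a strand call, any of which may lie on the plus strand. The locus was set beside 3 other rich clusters that are read mostly from the plus strand, each a stretch of 60 kb. Their listed sequences start between 92380008 and 92439887 on chromosome 2, between 24882432 and 24939778 on chromosome 14, and between 74440013 and 74499842 on chromosome 15, the last being called the other chromosome 15 cluster below. Minus-strand sequences made up 275 of 28312 (0.971%) in the chromosome 2 cluster, 120 of 16873 (0.711%) in the chromosome 14 cluster and 1159 of 11504 (10.1%) in the other chromosome 15 cluster, so that each of them held sequences of its less used strand. These clusters hold 11769 to 28416 sequences, against 3928 in the locus. No other cluster was compared, so that the lack of a second strand is not shown to be particular to this locus.

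With no sequence called on the plus strand, there were 0 opposite-strand pairs in the 1700001L05Rik locus at an overlap of 10 nt. The count was also 0 at each other overlap from 1 to 20 nt. The chromosome 2 cluster held 270 pairs at 10 nt against a mean of 85.8 at the other overlaps, the chromosome 14 cluster 43 against 18.2, and the other chromosome 15 cluster held 146 against 42.9. Partners listed at another position of the genome could not be seen. A at position 10, the other mark of the ping-pong cycle, was found in 29.8% of locus sequences of 24 to 32 nt (28.4 to 31.3%), against 32.6% in the rest of the list. At the neighbouring positions 9 and 11, A was found in 32.4% and 31.9% of the same locus sequences. Among locus sequences that did not start with U, A at position 10 was found in 32.4% (29.9 to 35.0%). In the chromosome 2, chromosome 14 and other chromosome 15 clusters that share was 33.6%, 33.4% and 35.1%.

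The exons were covered unequally, with most sequences in the last one. The longest annotated transcript, of 4969 nt and 3 exons, matched 3209 sequences. Exon 1 (83197420 to 83197712) had 77 sequences, or 263 per kb, and exon 2 (83195459 to 83195943) had 192, or 396 per kb. The last exon (83184277 to 83188467) had 2940, or 702 per kb, which is 74.8% of the locus. Sequences tiled nearly all of the transcript. Coverage counted only sequences that match the transcript over their whole length. By that count 94.2% of the bases of exon 1, 98.8% of exon 2 and 96.1% of the last exon were covered. The last exon had 0 uncovered stretches of 50 nt or more. Its last 19 nt count as uncovered, although sequences across the annotated end lie over them. The deepest base, at position 3361 of the last exon, lay under 113 distinct sequences, where the median base of that exon lay under 12.

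**Figure D1:**
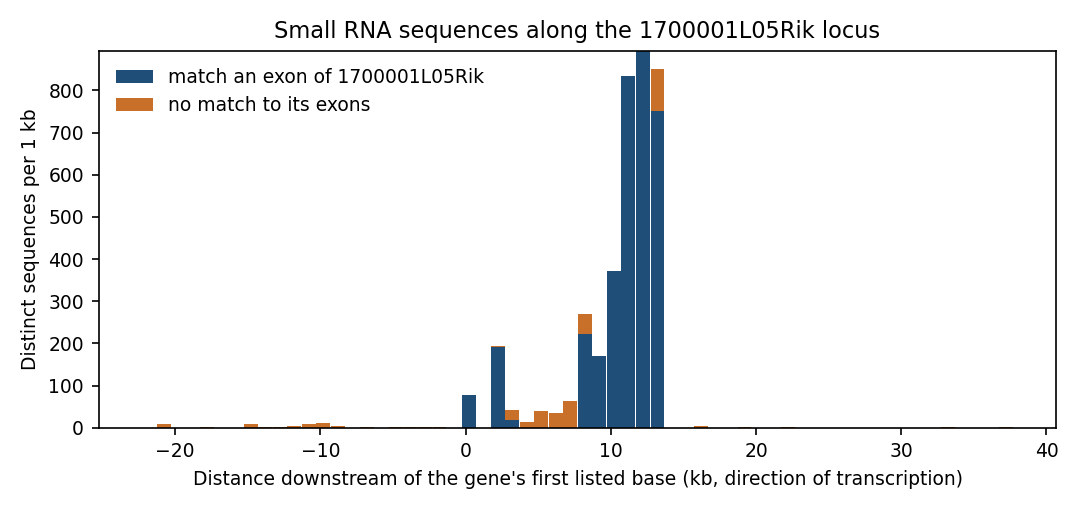
Distinct small RNA sequences per 1 kb along the 60 kb of the locus, plotted in the direction of transcription from the gene's first listed base, with sequences that match an exon of 1700001L05Rik in blue and the others in orange. The 3 richest bins, with 850, 894 and 835 sequences, lie together at the 3′ end of the gene, and few sequences lie outside it.

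The small RNAs began at the annotated start of the gene. The first listed sequence starts at nucleotide 2 of the longest transcript, and the 1763 nt upstream of that base held no listed sequence. The sequence at the start, at chr15:83197686-83197711 of mm9, begins with C and not U, and the capital marks that base.
First sequence of the transcript: Cggcagttggtctctgaggcggcggc
The same bases stand near the end of the RefSeq promoter window of 1700001L05Rik, which covers 250 bases before to 50 after the RefSeq start at chr15:83367248-83367547 of GRCm38.p6, minus strand, a build other than that of the list. Position 1 of the longest transcript is base 266 of the window. The window was searched on both strands for AACNG, the core of the site that MYB proteins bind, and for the longer AACNGTT. Capitals mark the AACNG matches, 2 on the strand shown and 1 on the opposite strand, which do not overlap.
Promoter window: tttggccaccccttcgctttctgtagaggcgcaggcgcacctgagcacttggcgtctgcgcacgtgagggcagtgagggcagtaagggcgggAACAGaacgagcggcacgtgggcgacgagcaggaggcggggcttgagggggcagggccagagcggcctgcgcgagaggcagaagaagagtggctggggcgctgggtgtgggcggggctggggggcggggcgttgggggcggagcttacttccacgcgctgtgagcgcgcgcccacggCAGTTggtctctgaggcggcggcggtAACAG
AACNG occurs in 80.3% of the 32851 promoter windows in the table, so that its presence does not set this window apart, and AACNGTT, found in 4.45% of them, does not occur in it. The window is 70.3% G and C and holds 30 CG dinucleotides.

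At the other end the small RNAs ran past the annotated transcript. The tiling of the minus strand continued without a break for 184 nt beyond the last annotated base and ended at 83184093. In it 98 sequences reached beyond the annotated end, of which 8 crossed it and 90 lay wholly past it, at 489 per kb. Below 83184093 the next 2290 nt held no sequence. One of the sequences across the end is shown, at chr15:83184250-83184278 of mm9, with the 27 bases that lie beyond the annotated transcript in capitals.
Across the annotated end: caGTTGTCTCAAATGTTTGTCACAACAGT
Of the 97 sequences of 24 to 32 nt that reached beyond the end, 86.6% (78.2 to 92.7%) started with U, and the mean length of the 98 was 28.1 nt.

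The boundaries of exons 1 and 2 were also boundaries of the small RNAs. Sequences in exon 2 ran from its first base to its last, and 0 sequences crossed either end of it or the 3′ end of exon 1. The first intron, 1479 nt between the matches in exons 1 and 2, held 0 sequences. Across splice junctions, too, the list held 0 sequences with at least 5 nt on each side. The list gives 1 unbroken genome interval for each sequence, so that a sequence across a junction has no place in it, and this 0 says nothing about splicing.

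The second intron did hold small RNAs. Part of it is exonic in other annotated transcripts. A 913-nt extension of the last exon towards the 5′ end had 306 sequences, or 335 per kb, 6 of which crossed the 5′ end of the last exon of the longest transcript, and a 109-nt exon inside the intron had 18, or 165 per kb. Another 227 sequences, 5.78% of the locus (5.07 to 6.56%), matched no exon. They lay in the 6087 nt between the extension and exon 2, at 37.3 per kb. The 214 of them with a strand, all on the minus strand, formed 33 separate patches of at most 73 nt, which together with the sequences of the 109-nt exon tiled 22.7% of those 6087 nt. The richest patch, from 83194134 to 83194174, held 25 of them. The list's rule for sequences with several genome positions is unknown, and repeats in the introns were not examined. Whether the gaps between patches, or the empty first intron, hold repeated sequence missing from the list was not tested. The most used 5′ end of these intron sequences, at 83194168, carried 7 sequences of 24 to 30 nt, shown by the longest with capitals as for the most used ends above.
Intron end at 83194168: TcattgggactggaaagatggcttTGATTA

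Intron sequences without an exon match and those past the 3′ end started with U more often than sequences of the 3 exons of the longest transcript did. U was the first base of 87.2% (82.1 to 91.2%) of the intron sequences of 24 to 32 nt that matched no exon, against 63.6% (61.8 to 65.4%) in the last exon, 59.0% (51.7 to 66.1%) in exon 2 and 45.8% (34.0 to 58.0%) in exon 1. Of the parts that are exonic in other transcripts, the 913-nt extension had 59.7% (53.8 to 65.3%), whereas the 109-nt exon inside the intron had 83.3% (58.6 to 96.4%, 15 of 18 sequences), near the intron around it. With each distinct 5′ end counted as 1, the shares were 81.4% (73.0 to 88.1%) of 113 ends in the intron, 77.3% (62.2 to 88.5%) of 44 ends of sequences reaching past the annotated 3′ end, 52.0% (49 to 55%) of 1113 in the last exon, 50% (39.5 to 60.5%) of 94 in exon 2 and 31.8% (18.6 to 47.6%) of 44 in exon 1. The U content of the covered bases differed less between these parts, with 31.1% in the intron, 36.9% past the end, 30.0% in the last exon, 26.3% in exon 2 and 20.3% in exon 1. Intron sequences were also longer, with a mean of 27.4 ± 1.58 nt (SD over 227 sequences) against 26.7 ± 2.07 nt over 2940 in the last exon, and 1 of them (0.441%) measured under 24 nt, against 5.92% in the last exon. Density differed between the same parts, with 37.3 sequences per kb in the intron, 489 past the end and 702 in the last exon. The part of density or of U content in the difference in first-base U was not tested.

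**Figure D2:**
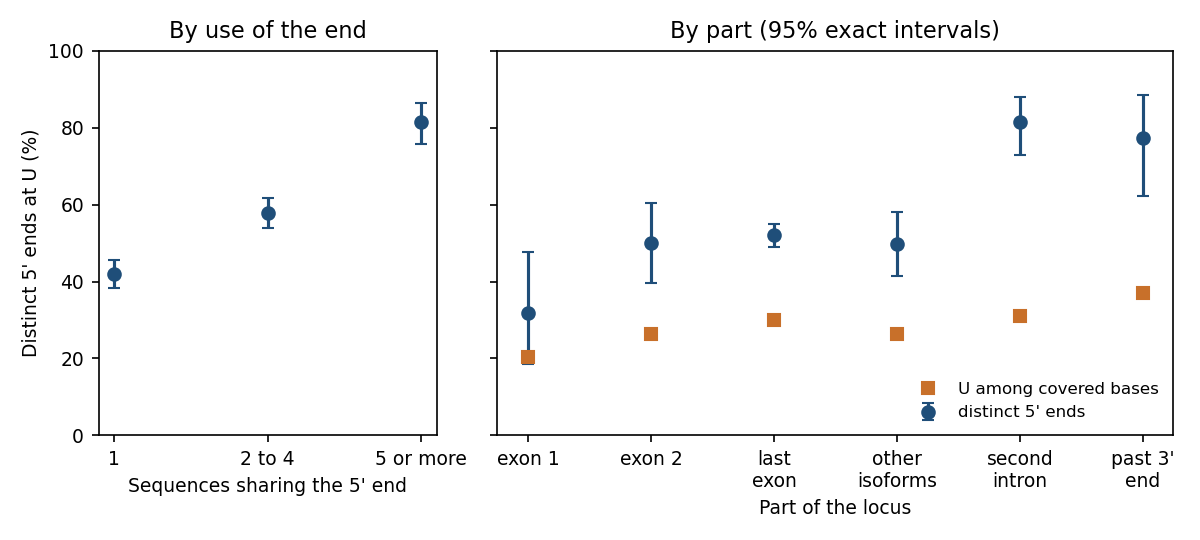
Share of distinct 5′ ends that are U, with 95% exact intervals, by the number of listed sequences sharing the end (left) and by part of the locus (right, with the share of U among the covered bases as orange squares). The share was 81.4% at ends with 5 or more sequences, against 41.9% at ends with 1, and 81.4% in the second intron, against 52.0% in the last exon.

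The last exon was covered more densely towards its 3′ end, though not evenly. The 2096 nt nearest the 3′ end held 1967 sequences (938 per kb), against 973 (464 per kb) in the 2095 nt before them. In bins of 250 nt it ranged between 200 per kb in the first bin and 1612 per kb from nucleotide 3501 to 3750, with 1172 per kb from 1751 to 2000 and 1320 per kb from 2751 to 3000 as further peaks. Over the 17 bins, position and density had a Pearson r of 0.61 and a Spearman rho of 0.70, given as a description of bins that share 1 transcript and the same libraries.

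The richest bin was also the poorest in U. Only 18% of its bases and 38.7% of the first bases of its 403 sequences were U, the lowest of the 17 bins on both counts. The highest first-U share, 87.5%, was in the bin from nucleotide 751 to 1000, which had 64 sequences and 30.4% U. Across the bins, U content and first-U share had an r of 0.79 (rho 0.81), and density and first-U share an r of -0.63 (rho -0.45).

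**Figure D3:**
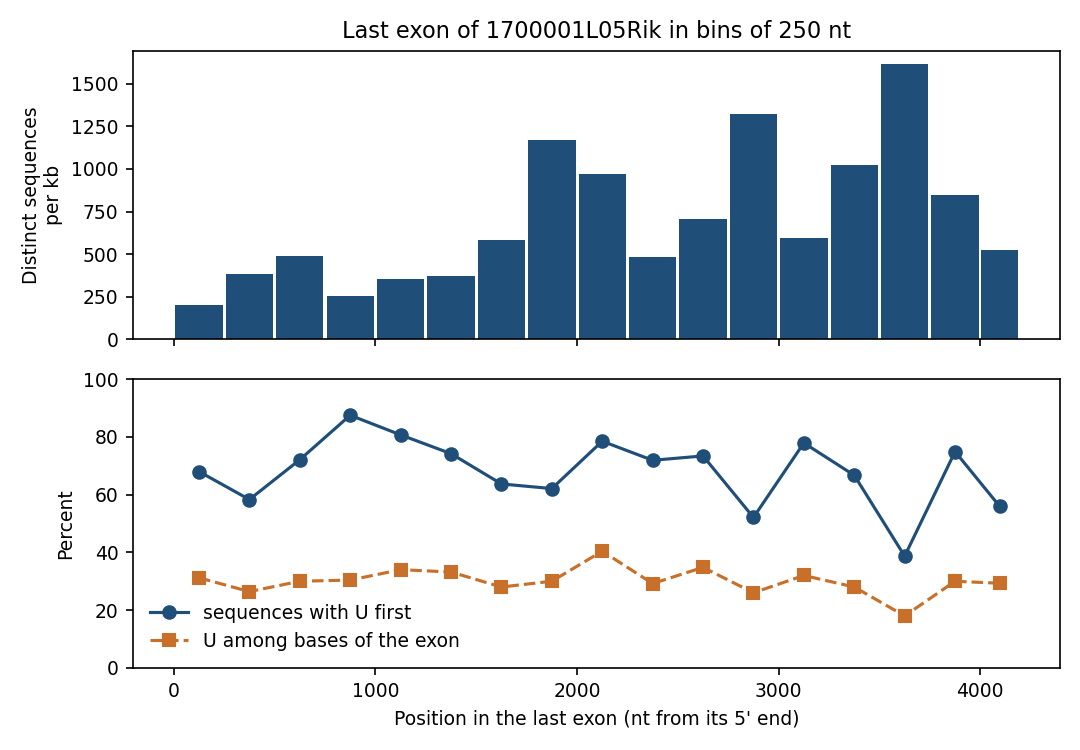
The last exon of 1700001L05Rik in bins of 250 nt (the last of them shorter), from its 5′ end on the left, with distinct sequences per kb above and, below, the percentage of sequences of all lengths with U first and of U among the bases of the exon. Density peaks at 1612 per kb in the bin where both percentages are lowest, 38.7% and 18%.

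A U in the precursor served as a 5′ end more often than the other bases did, but all 4 bases were used. Of the 1443 U positions of the longest transcript 44.4% (41.8 to 47.0%) started at least 1 listed sequence, against 20.5% of A, 15.6% of C and 15.5% of G positions. Over the whole locus 64.8% of sequences of 24 to 32 nt started with U (63.2 to 66.3%), 15.5% with A, 10.2% with G and 9.53% with C, against 68.7% with U in the rest of the list. The U share in the compared clusters was 59.9% (chromosome 2), 60.3% (chromosome 14) and 58.7% (other chromosome 15).

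The most used ends were mostly at U. The 3896 sequences with a strand shared 1600 distinct 5′ ends, 2.44 sequences per end. Of the 742 ends with a single sequence 41.9% (38.3 to 45.6%) were U, of the 632 with 2 to 4 it was 57.8% (53.8 to 61.6%), and of the 226 with 5 or more it was 81.4% (75.7 to 86.3%). Those 226 ends, 14.1% of all, held 36.7% of the sequences, and the highest number at 1 end was 12. The number of distinct sequences at an end grows with the number of reads there, which the list does not give.

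5′ ends were shared by more sequences than 3′ ends were. Among sequences of 24 to 32 nt there were 2.32 sequences per distinct 5′ end (1588 ends) and 1.76 per distinct 3′ end (2101 ends). The same order held in the clusters of chromosome 2 (2.19 and 1.71), chromosome 14 (2.17 and 1.67) and other chromosome 15 (2.18 and 1.69).

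The sequences of the locus had the size of piRNAs. They measured 18 to 34 nt with a mean of 26.8 ± 2.0 nt (SD over sequences) and a most common length of 27 nt (22.3%), against 27.1 ± 1.69 nt in the rest of the list, where 27 nt was also most common. Lengths of 24 to 28 nt, the range in which Mili-bound piRNAs are known to lie, made up 77.0% (75.6 to 78.3%), and 29 to 32 nt made up 17.8% (16.7 to 19.1%), against 78.2% and 19.9% in the rest of the list. In the compared clusters the longer class was smaller, with 9.64% on chromosome 2, 10.6% on chromosome 14 and 8.79% in the other chromosome 15 cluster. The library protocol cut RNA of a set size range from a gel, so that length alone does not identify piRNAs.

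First-base U varied with length. It was lowest at 26 nt with 58.1% (54.6 to 61.6%) and higher at 30 nt with 83.4% (77.6 to 88.2%) and at 31 nt with 87.3% (79.2 to 93.0%). At 24 nt it was 69.9% (63.3 to 75.9%), above the 60.4% at 25 nt.

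**Figure D4:**
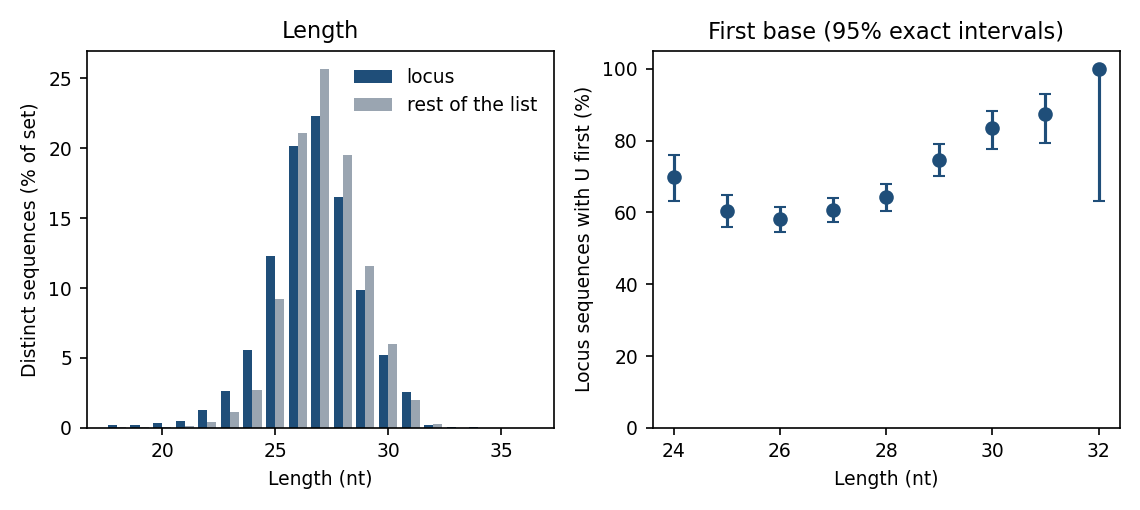
Left, share of distinct sequences by length (nt) in the locus (blue) and in the rest of the list (grey). Right, percentage of locus sequences starting with U at each length, with 95% exact intervals. The lengths of both sets peak at 27 nt, and the U share is lowest at 26 nt.

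Sequences under 24 nt made up 5.14% of the locus (202, 4.47 to 5.88%), against 1.89% of the rest of the list, 7.35% of the chromosome 2 cluster, 6.15% of the chromosome 14 cluster and 7.52% of the other chromosome 15 cluster. Of the 202 short sequences 190 (94.1%) shared their 5′ end with a sequence of 24 to 32 nt and 161 (79.7%) their 3′ end, and 70.3% (63.5 to 76.5%) started with U. In the 3 compared clusters 87.9 to 89.5% of short sequences shared a 5′ end with a longer one.

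The base after the 3′ end was U about as often as any covered base was. In head-to-tail cutting of a precursor, known from work on piRNA production, the 3′ end as first cut adjoins the 5′ end of the next piece. The base after such a 3′ end is then often U. Whether the listed 3′ ends are as first cut cannot be told from the list, and head-to-tail cutting was not tested. Of 2014 distinct 3′ ends whose next base could be read from an overlapping sequence, 28.3% (26.3 to 30.3%) were followed by U, against 28.7% U among all covered bases of the strand. Between 9 bases before and 10 bases after the end the U share ranged from 22.8 to 28.8%. Distinct 3′ ends of the longest transcript were followed directly by a distinct 5′ end in 475 pairs, against 461 ± 8.32 (SD) over distances of 2 to 20 nt, where the highest was also 475. Counted as pairs of sequences there were 2543 directly adjoining pairs, 1.11 times the mean of 2291 ± 97.1. The number declined unevenly with distance, with 2439 pairs at 2 nt, 2194 at 9 nt, 2408 at 11 nt and 2193 at 20 nt.

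**Figure D5:**
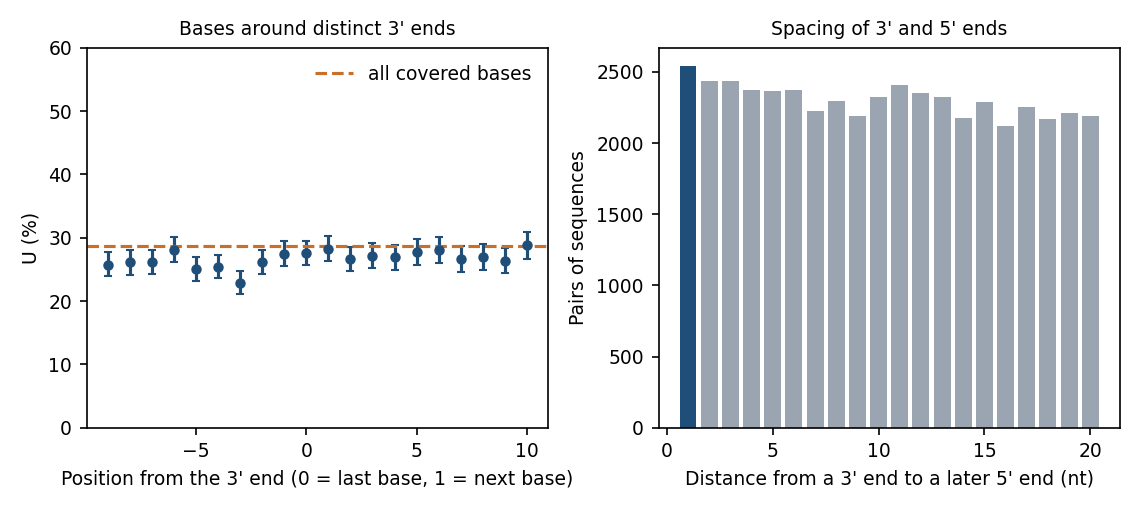
Left, percentage of U at each position around distinct 3′ ends (0 is the last base of the sequence, 1 the next base of the precursor) with 95% exact intervals, and all covered bases as a dashed line at 28.7%. Right, pairs of sequences by the distance from a 3′ end to a later 5′ end in the longest transcript, with directly adjoining pairs in dark blue. The next base is U in 28.3%, and adjoining pairs number 2543 against 2439 at 2 nt.

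The remaining 168 sequences lay outside the matched stretch of 1700001L05Rik, 98 of them in the tail past its 3′ end. Pacsin2, a membrane-shaping protein gene upstream, matched 50 sequences (83206769 to 83219013), and Arfgap3, a regulator of Golgi transport on the other side, matched 1. Both are read from the same strand as 1700001L05Rik. The neighbours A4galt and Ttll1 matched 0 sequences within the bounds. The other 19 sequences had no strand and no exon match. At the bounds themselves the list was nearly empty: 1 sequence lay in the 1 kb inside the lower bound and 0 in the 1 kb outside it, and 0 lay in the 1 kb inside the upper bound and 9 in the 1 kb outside it.

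None of the 3928 sequences matched a RefSeq miRNA, and 0 matched transcripts of genes elsewhere in the annotation. The list's rule for sequences with several genome positions is unknown. If such sequences were left out, these counts of 0 were fixed beforehand and say nothing about the locus. Whether they were left out was not tested. In the last exon, 10 of 165 uncovered nt and 42 of 4026 covered nt lay within a stretch of 25 nt also found in another gene. Whether copies exist in unannotated parts of the genome was not analysed here.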

How the data were processed

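Small RNAs from 3 immunoprecipitates, 1 library per group, were deposited by the authors as 1 list of distinct sequences with chromosome and interval. Positions are those of NCBI mouse build 37 per the file headers, and the submitters' processing notes name mm9. Its 3 columns hold no read count, library or strand, so that a listed sequence is the unit. The sources used here name no aligner, mismatch limit or rule for sequences with several positions. Per the labels' protocols, RNA was selected by size on a gel before the Illumina small RNA kit was used.

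Members were taken by start position. Strand was called where all overlaps of at least 12 nt with listed neighbours fixed the same orientation, and otherwise from an exact match to a transcript of the locus. The calling was tested on simulated data. Genes were assigned by exact full-length match to GENCODE vM21 transcripts, since that annotation describes GRCm38. Exon positions on mm9 are those implied by the matching sequences, whose offset was constant within each exon. Base shares used 24 to 32 nt, each distinct sequence weighing 1. No test across conditions was possible. Python 3.11.15, numpy 2.4.6, scipy 1.17.1 and matplotlib 3.10.9 were used.

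The locus, the compared clusters and the neighbouring genes were chosen with earlier results of these data known. The 5 most used ends and the promoter motifs were named by rule, whereas the stretch past the 3′ end, the intron patches, the exon boundaries, the richest 120 nt, the short sequences and the spacing of ends were chosen after values had been seen. Alternatives counted each 5′ end as 1, changed the length range, the bounds, the overlap for strand calls and the exon match.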

Additional observations from a re-analysis of the deposited data

How the results depend on the processing

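Among 33 values under other settings, 29 stayed within the interval or tolerance of the reported one and 4 left it, with 0 reversals. Of the 29, the 7 for the strand share and the 3 for opposite-strand pairs could hardly move, since no plus-strand sequence was called, and they say nothing about stability. The share of first-base U, 64.8% as reported, was 54.0% with each distinct 5′ end counted as 1 and 61.4% at 24 to 28 nt. The first of these drops follows from the greater number of sequences at U ends. The share matching an exon of 1700001L05Rik, 89.9% as reported, was 87.5% with each 5′ end counted as 1 and 91.0% within the stretch of 1-kb bins holding at least 10 sequences, which leaves out thinly filled flanks. The minus-strand share stayed at 100% with overlaps of 10, 12 or 15 nt and no transcript match, and U after the 3′ end ranged from 27.2 to 28.6% (counting every sequence and reading the base from the annotated transcript were chosen after seeing the data). Counted in 60-kb stretches shifted by 20 or 40 kb, the stretch with the gene held 3964 and 3901 sequences. Its rank, 34th as reported, was then 40th and 27th. No paired analysis was possible because each group has 1 library and the list does not separate them. The unknown read numbers limit each value: an end or a sequence not listed may have been missed for lack of depth.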
